A study of Arabidopsis thaliana with 2 samples.

Results

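The 5′ UTR hotspots described here are stretches of the Arabidopsis genome that a single-stranded RNA library marked and that lie wholly inside the 5′ untranslated region (5′ UTR) of an mRNA. A deposited hotspot was counted when every base fell inside 5′ UTR exons, on the same strand, of the isoform with the longest coding sequence of a protein-coding gene on chromosomes 1 to 5. This rule chose 924 of the 32785 nuclear hotspots (2.82%), out of 33187 hotspots in the whole list, and placed them on 873 genes. The rule used position only, so scores, base composition and ribosome-bound RNA levels did not choose them.

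The study profiled unopened, immature flower bud clusters of the accession Col-0 with 2 libraries, 1 of single-stranded RNA (ssRNA-seq) and 1 of ribosome-bound RNA (ribo-seq), and labels name no other genotype, age or treatment of the plants. The first library's label names a dsRNase and, in brackets, RNase ONE, an enzyme that digests unpaired RNA, and because these contradict each other the library goes by its title here. For the second library, monosomes and polysomes from a 15 to 60% sucrose gradient were pooled and their RNA was fragmented, so it measures RNA that carried ribosomes and does not show where on the mRNA they sat. Each assay had 1 library and no replicate, so nothing below was tested between conditions, and every interval is a 95% interval that covers counting error only.

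In eukaryotes the small ribosomal subunit usually binds at the capped 5′ end of the mRNA and scans along the 5′ UTR to the start codon. An AUG met on the way can start a short upstream open reading frame (uORF), which often lowers translation of the main protein. Base pairing in a 5′ UTR can slow scanning, and unpaired stretches are open to scanning ribosomes and to RNA-binding proteins.

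Hotspots of 4 genes with some of the longest unbroken runs of purines (A or G) are shown first, because 5′ UTR hotspots held more purines than the rest of their own 5′ UTRs. These sites were chosen after their values were seen. Each is 30 bases of the mRNA strand, written with T for U, from the RefSeq genome TAIR10.1, and capitals mark the purine run. The run is 40 bases long in LARP1c, a gene of a La-related RNA-binding protein (AT4G35890, chr4:16997130-16997159, plus strand) and 32 bases in AT4G02010, annotated as a protein kinase (chr4:881104-881133, plus strand). It is 30 bases long in AT3G10200, annotated as a methyltransferase (chr3:3157577-3157606, plus strand), and 29 bases in AT2G16250, annotated as a leucine-rich repeat kinase (chr2:7043157-7043186, minus strand).
LARP1c: AGAGAGAGAGAGAGAGAAGAGAAGAGAAGA
AT4G02010: AAAGAGAAAAAAAGAGAGAGAGAGAGAGAG
AT3G10200: AAGAAGAAGAAGAAGAAGAAGAAGAAAGAG
AT2G16250: tAGAGAGAGAGAGAGAAAGAGAAAGAGAGG

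A second set shows the first AUG inside hotspots, in capitals, for the 5 hotspots with most AUGs (ties by score, then by locus) and for EMB1444, a bHLH transcription factor gene and the only host gene on a list of known regulatory uORFs whose hotspot held an AUG. The sites lie at chr1:1873462-1873491 (EMB1444, minus strand), chr3:6545208-6545237 (MEF20, minus), chr3:8725865-8725894 (AT3G24150, minus), chr4:331369-331398 (APRR8, minus), chr5:16385248-16385277 (CLC-A, minus) and chr1:29344876-29344905 (AT1G78040, plus).
EMB1444: taggggttgtttATGtttgggaaaggaatg
MEF20: gATGatgattatgatgaagatgggtttgtg
AT3G24150: gATGgagacaacaatcggagattctatgac
APRR8: cgATGgagcggatttgatggtgttggaatg
CLC-A: tATGtttgtatcaccatacatataatggtg
AT1G78040: ATGatccaattagtagtcattgatcagaag

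The ribosome-bound library held 9574408 mapped clones over 37318 transcripts of 31280 genes, and no source used here gives the depth of the ssRNA-seq library. All 18 genes of a tapetum and pollen wall list, which mark the anther, were above 0 RPKM (the deposited level, scaled by transcript length and by mapped clones). Of these 18 genes, 14 were above the median gene, as were all 5 floral organ identity genes. A level above 0 sets little apart, because only 1439 of the 20419 genes with a 5′ UTR exon of at least 50 bases were listed at 0. Of 7 root and seed genes, 5 were above 0 and 1 was above the median gene. The hotspots are given in TAIR9 and the gene models in TAIR10.1, so their register was checked: exons on the matching strand held 82.3% of nuclear hotspot bases, 64.1% with the intervals moved by 100 bases and 45.0% with them moved by 1000 bases.

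The 5′ UTR hotspots had a median length of 62 bases (lowest 50, highest 161), against 64 bases for the 18770 hotspots wholly in coding exons and 62 bases for the 2474 wholly in 3′ UTRs. Together they covered 60017 bases, 1.27% of all annotated 5′ UTR bases, and 449 lay on the plus strand and 475 on the minus strand. Only 24 of the 924 (2.60%) reached 100 bases, against 7.87% of coding and 5.74% of 3′ UTR hotspots. Hotspots were spaced more thinly in 5′ UTRs, at 195 per Mb of annotated 5′ UTR, than in coding exons, at 570 per Mb, or in 3′ UTRs, at 383 per Mb. The whole-inside rule leaves out hotspots that reach past an edge, and its part in these densities was not tested.

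Each hotspot has a deposited score below 0, for which no source used here states a formula. The scores took few values, and 879 of the 924 hotspots stood at 6 of them, which were -3.59, -3.34, -3.02, -2.62, -2.08 and -1.27. The median was -2.62, against -3.02 for coding and -2.62 for 3′ UTR hotspots. Scores more negative than the nuclear median were found for 42.7% (39.5 to 46.0) of 5′ UTR hotspots, against 52.2% (51.5 to 52.9) of coding and 48.0% (46.0 to 50.0) of 3′ UTR hotspots. The 90 hotspots tied at -3.59 (9.74%) were the most negative. None was below -10, a range reached by only 9 of the 18770 coding hotspots and by none of the 2474 3′ UTR hotspots. Across the 924 hotspots, longer ones had more negative scores (Spearman's rho -0.23), while the score had rho -0.02 with the RPKM of the gene and 0.04 with the distance to the start codon. These are descriptions across hotspots of 1 library, and hotspots are not replicates.

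Hotspots sat nearer the start codon than the cap. The 5′ end of a hotspot lay a median of 165 bases (153 to 177) from the annotated mRNA 5′ end, and the 3′ end lay a median of 95 bases (87 to 101) from the start codon along the spliced mRNA. The distance to the start codon ran between 0 and 1983 bases, with 75 hotspots within 10 bases, 276 (29.9%) within 50 bases and 223 (24.1%) beyond 200 bases. In 6 genes the hotspot ended at the last base before the start codon. Only 30 hotspots (3.25%) began within 10 bases of the mRNA 5′ end.

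To set aside the length of the 5′ UTR, each hotspot in a 5′ UTR without an intron was placed on a scale that is 0 when it touched the mRNA 5′ end and 1 when it touched the start codon. The 597 hotspots with at least 20 bases of free space had a median of 0.661 (0.628 to 0.699) on this scale. Cut into 5 equal sections starting at the mRNA 5′ end, the scale held 10.9%, 14.9%, 17.6%, 23.1% and 33.5% of them. The last section held 200 hotspots (29.7 to 37.4%) and the first 65 (8.50 to 13.7%), and these intervals do not overlap.

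**Figure D1:**
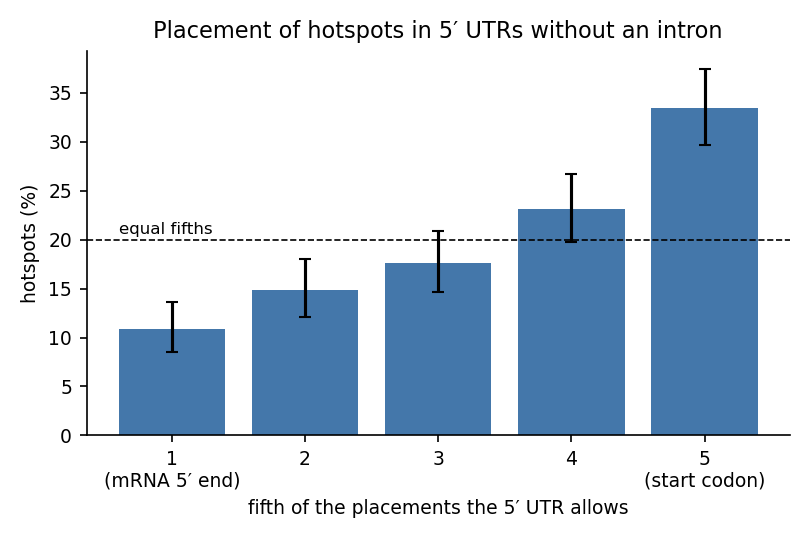
Share of the 597 hotspots in intronless 5′ UTRs (vertical axis, percent) in each of 5 equal sections of the placements open to them, with the mRNA 5′ end on the left and the start codon on the right. Error bars are exact binomial 95% intervals and the dashed line marks equal shares. The bars climb in every step, to 33.5% in the section next to the start codon.

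Very close to the start codon the coverage was low again. This was counted in 5′ UTRs without an intron. Per kb of these 5′ UTRs, hotspots covered 3.59 bases in the last 20 bases before the start codon. They covered 15.2 bases between 60 and 80 bases upstream and 9.31 bases between 280 and 300 bases upstream. The whole-inside rule acts here directly. Over all 5′ UTRs, with or without an intron, 412 hotspots with at least 50% of their bases inside ran over the start codon into the coding sequence and were not counted. In all, 2125 hotspots touched a 5′ UTR with at least 1 base, of which the 924 made up 43.5%. Among the 517 that were at least 50% inside but not wholly, 43 reached into an intron, 31 passed the annotated 5′ end, 31 did more than 1 of these, and 67 missed by 1 to 5 bases. With these 517 counted, the median distance to the start codon was 44 bases (37 to 53).

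Host 5′ UTRs were long and often carried an intron. Their median length was 350 bases (335 to 367), against 187 bases (184 to 189) for the 20419 genes whose 5′ UTR has an exon of at least 50 bases and could hold a hotspot. Of those 20419 genes, 4.28% were hosts. The share was 0.331% for 5′ UTRs of 50 to 100 bases, 1.71% for 100 to 200 bases, 4.16% for 200 to 300 bases, 9.24% for 300 to 500 bases and 18.5% for longer ones. Per Mb of 5′ UTR the hotspots numbered 44.0, 115, 172, 258 and 299 in the same bins. A hotspot of at least 50 bases has few places to lie wholly inside a short 5′ UTR, so the rule itself gives part of this order, and how much was not tested. A 5′ UTR intron was annotated in 34.1% (31.0 to 37.4) of host genes, against 18.2% (17.7 to 18.8) of all genes that could hold a hotspot. Within bins of 5′ UTR length, the shares for hosts and other genes were 0% and 5.32% at 50 to 100 bases, 21.3% and 13.8% at 100 to 200 bases, 29.1% and 21.6% at 200 to 300 bases, 35.6% and 29.9% at 300 to 500 bases, and 45.9% and 31.4% above that. Of the 325 hotspots on such genes, 238 (73.2%) lay in the first exon. The share of 5′ UTR bases that first exons hold was not counted, so this does not show a preference.

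The share of hosts differed little by chromosome, between 3.71% of 3184 genes on chromosome 2 and 4.96% of 4055 genes on chromosome 3. Single genes mostly held 1 hotspot (824 genes), 47 genes held 2, and 2 genes held 3. Another gene overlapped few of them: 15 hotspots shared bases with an exon of a second gene on the same strand, and 38 lay opposite an exon on the other strand. In 13 cases the bases were coding in another isoform of the same gene. The central 50 bases were present at 1 place of the nuclear genome for 918 of the 924 hotspots. The organelle genomes were not searched, so copies there, as of the chromosome 2 gene AT2G07727, were not counted.

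The gene models bear on all of these distances. The annotated isoform was longer than the transcript length listed in the deposited table for 769 of the 873 host genes (88.1%), by a median of 150 bases, and the median over all genes that could hold a hotspot was 139 bases. If all the extra length sat at the 5′ end, 327 hotspots (35.4%) would lie wholly upstream of the transcript that the deposited table lists. Where it sits was not tested, as the table gives no coordinates.

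Purines were more frequent inside the hotspots. The median hotspot held 53.8% purines (52.7 to 54.7), against 46.1% (45.6 to 46.7) in the rest of the same 5′ UTR. Within genes, the hotspot minus the rest had a median of 7.39 points (5.75 to 8.30), and it was above 0 in 635 of 922 hotspots (68.9%). Both purines were more frequent and both pyrimidines less frequent: A made up 31.4% of hotspot bases and 28.6% of the other bases, G 22.0% and 18.1%, C 17.5% and 19.5%, and U 29.2% and 33.9%. The same measure over the own region gave 4.41 points (4.26 to 4.54) for coding and 4.54 points (4.14 to 5.12) for 3′ UTR hotspots. Whether these regions differ was not tested, and the 3 regions start at different purine levels.

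The purine difference was widest near the cap. In the first of the 5 sections, the 65 hotspots had a median of 67.3% purines and a difference of 19.1 points (12.3 to 26.8), with 54 above 0. The following sections had differences of 8.60 (3.68 to 13.4), 7.43, 4.09 and 6.19 points. All intronless 5′ UTRs of at least 100 bases, cut into 5 equal lengths, had medians of 50.0%, 47.5%, 44.7%, 43.9% and 48.8% purines, so the background also changed along the 5′ UTR.

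Long repeats showed the same contrast. In the central 50 bases of each hotspot, read on the mRNA strand only, the repeat GAGAGAGA occurred in 48 of 924 (5.19%, 3.85 to 6.83), against 2.59% of all 50-base windows of the same 5′ UTRs and 1.49% of all windows of all 5′ UTRs. The repeat CTCTCTCT, which is the same letters on the opposite strand, occurred in 11 hotspot centres (1.19%, 0.596 to 2.12), against 3.54% of windows of the same 5′ UTRs and 3.81% of all windows. Runs of at least 15 purines were present in 85 centres (9.20%, 7.41 to 11.2), against 4.51% and 3.07% of the same windows, and runs of at least 15 pyrimidines in 20 centres (2.16%, 1.33 to 3.32), against 6.19% and 6.79%. GAGAGAGA and CTCTCTCT were present in 0.495% and 0.128% of coding hotspot centres, and in 0.809% and 0.243% of 3′ UTR hotspot centres. No windows of coding exons or 3′ UTRs were counted beside these.

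**Figure D2:**
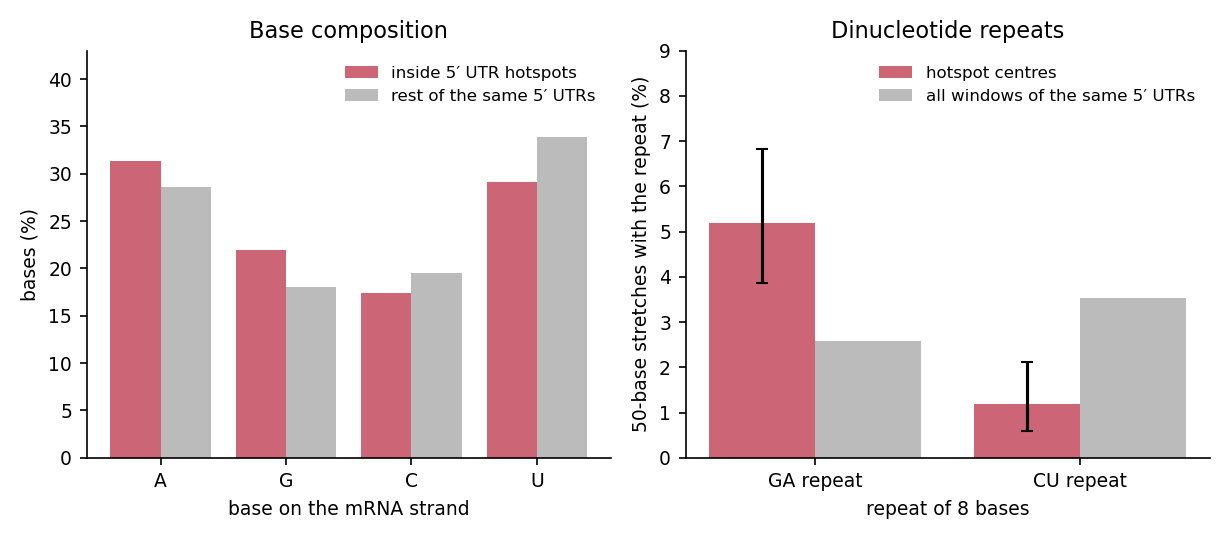
Left, percent of bases that were A, G, C or U inside the 924 5′ UTR hotspots (red) and in the rest of the same 5′ UTRs (grey). Right, percent of central 50-base stretches of hotspots (red, with exact binomial 95% intervals) and of all 50-base windows of the same 5′ UTRs (grey) that held a GA or a CU repeat of 8 bases; the hotspots were above the windows for GA, at 5.19% and 2.59%, and below them for CU, at 1.19% and 3.54%.

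The 4 hotspots with the printed purine runs lay between 4 and 285 bases from the start codon. The LARP1c hotspot (chr4:16997096-16997167) was 72 bases long, with 87.5% purines against 39.3% in the rest of its 5′ UTR of 342 bases, and the gene had 0.596 RPKM (0.318 to 1.02). The AT4G02010 hotspot held 76.8% purines against 43.4%, the AT2G16250 hotspot 76.9% against 42.5%, and the AT3G10200 hotspot 75.3% against 49.3%. The other 3 genes had between 0.107 and 0.320 RPKM. Since these were picked for their purines, the values are a description only.

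Total GC content and predicted folding moved less. The GC content had a median of 39.3% in hotspots and 37.5% in the rest of the same 5′ UTR, with a median difference of 1.72 points (1.11 to 2.24) and 557 of 922 above 0. Folded alone, hotspots had a median predicted energy of -0.127 kcal/mol per base, against -0.125 for the mean of windows of equal length in the same 5′ UTR. More negative values mean a more stable predicted fold. The difference had a median of -0.00100 (-0.00519 to 0.00357) kcal/mol per base, with 470 of 922 below 0. By position the sign changed: it was 0.0257 (0.0149 to 0.0388) in the section next to the mRNA 5′ end and -0.0180 (-0.0283 to -0.00911) in the section next to the start codon. GC of all those intronless 5′ UTRs itself went up, with 33.9% in the part at the mRNA 5′ end and 37.1% in the part at the start codon, and its part in the change of sign was not tested.

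Upstream AUGs were about as frequent in hotspots as elsewhere in 5′ UTRs. An ATG was present in 291 of 924 hotspot centres (31.5%, 28.5 to 34.6), against 29.5% of 50-base windows of the same 5′ UTRs and 31.8% of all windows. At full length, 344 hotspots (37.2%, 34.1 to 40.4) held at least 1 AUG, 121 of them more than 1. Host genes had an upstream AUG anywhere in the 5′ UTR in 80.6% of cases (77.9 to 83.2), against 63.2% (62.5 to 63.8) of all genes that could hold a hotspot. That difference was not present at like length, where the shares for hosts and other genes were 43.3% and 52.8% at 100 to 200 bases, 72.4% and 78.8% at 200 to 300 bases, 90.6% and 92.1% at 300 to 500 bases, and 98.6% and 99.2% above that.

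Complete uORFs, with an AUG and an in-frame stop inside the 5′ UTR, were touched by 482 hotspots (52.2%, 48.9 to 55.4), and 197 (21.3%) held one from AUG to stop. No windows of like length were counted beside these shares, so they do not show whether hotspots differ from other 5′ UTR sequence. By bases, 27.9% of hotspot sequence lay inside uORFs, against 33.6% of the remaining sequence of the same 5′ UTRs. The context that favours start codon recognition is a purine at position -3 together with G at +4, counted from the A of the AUG as +1. It surrounded 15.5% (12.5 to 18.8) of the 537 AUGs inside hotspots, against 37.9% (34.7 to 41.2) of the main start codons of the 873 host genes. Upstream AUGs outside hotspots were not counted for this context, so these shares do not set hotspots apart. The minimal uORF ATGTAA, an AUG followed at once by a stop, was found in 2 hotspot centres (0.216%, 0.0262 to 0.780), against 0.933% of windows of the same 5′ UTRs. The telobox-like letters AAACCCTA were in 11 centres (1.19%), against 1.24% of such windows. As before, these matches are letters in a window and not evidence of a bound factor.

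Among 36 genes of a list of known regulatory uORFs, 4 (11.1%, 3.11 to 26.1) were hosts, against the background of 4.28%, and the median 5′ UTR of the list was 455 bases long. The bZIP2 gene, whose uORF belongs to a family through which sucrose represses translation, had a hotspot of 99 bases at -3.59 (chr2:7898942-7899040). It lay wholly inside the uORF of 41 codons, with its far end overlapping the last base of the uORF's AUG, and bZIP2 had 0.727 RPKM (0.325 to 1.40). NIP5;1, a boric acid channel in which ribosomes stall at AUG-stop elements under high boron, had 2 ATGTAA elements, 312 and 122 bases upstream of the start codon. Its hotspot of 63 bases (chr4:6434676-6434738) spanned 228 to 166 bases upstream, between these elements and over neither. The gene had 0.427 RPKM (0.160 to 0.917).

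EMB1444 held 2 hotspots, of which the one at 307 to 252 bases upstream contained both the printed AUG, the start of a uORF of 39 codons, and a second AUG. The hotspot nearer the start codon ended 2 bases short of it and held no AUG. In LHW, a bHLH regulator of vascular cell divisions, the hotspot of 69 bases lay just upstream of 3 clustered AUGs and over none of them, 254 to 186 bases before the start codon. LHW had 0.769 RPKM (0.466 to 1.20) and EMB1444 had 0.202 RPKM (0.0721 to 0.447). PIF7, a bHLH factor of shade and warmth responses whose 5′ UTR is known for a temperature-sensing hairpin, carried the second longest hotspot, 138 bases (chr5:24640472-24640609), which shared 100 bases with a uORF of 41 codons. PIF7 had 0.243 RPKM (0.0529 to 0.692).

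**Figure D3:**
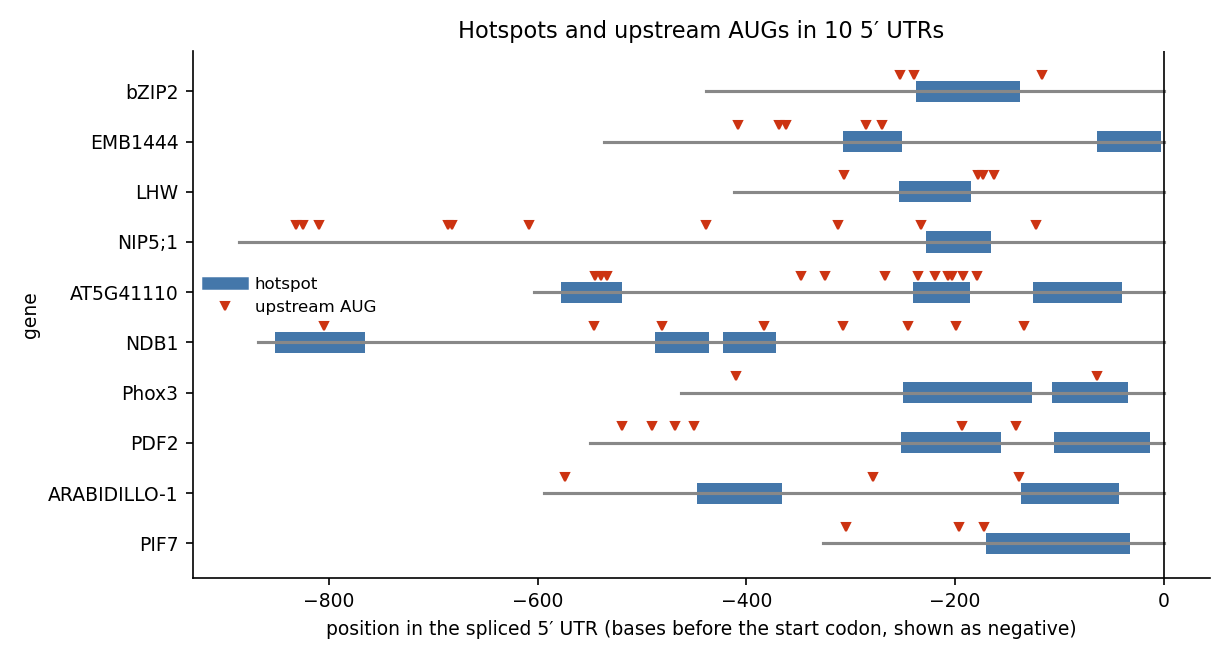
Maps of the spliced 5′ UTRs of 10 host genes, aligned at the start codon (0), with the distance before it in bases on the horizontal axis. Blue boxes are hotspots and red triangles are upstream AUGs: in bZIP2 the box begins on the last base of the AUG that lies 239 bases upstream, in NIP5;1 it lies between the AUGs at 312 and 122 bases, and AT5G41110 and NDB1 carry 3 boxes each.

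Hotspots rich in AUGs were the exception. AT3G24150, a gene of unknown function, and AT1G78040, a pollen Ole e 1 family gene, each had 7 AUGs in 1 hotspot. CLC-A, a nitrate and proton exchanger of the vacuole, had 6. Another 6 hotspots were tied at 5, and of these the rule on ties named those of MEF20, an RNA editing factor of mitochondria, and APRR8, a pseudo-response regulator. The uORFs opened at the printed AUGs were short in 4 of these 5, with 4 to 16 codons, and 20 codons long in MEF20. For AT1G78040 and APRR8 the annotated mRNAs were 1897 and 3285 bases long, against 938 and 1315 bases in the deposited table, so their hotspots lie in 5′ UTRs that the table's transcripts may lack.

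AT5G41110, annotated as a meiosis chromosome segregation family protein, and NDB1, an NAD(P)H dehydrogenase on the outer face of the inner mitochondrial membrane, held 3 hotspots each. In AT5G41110 the hotspots of 59, 54 and 85 bases contained 3, 5 and 0 of its 12 upstream AUGs. In NDB1 the hotspots of 86, 52 and 50 bases contained 1 AUG each. Phox3, PDF2, a homeodomain factor of the epidermis, and ARABIDILLO-1, an armadillo-repeat F-box protein that promotes lateral roots, held 2 each and came next by bases covered. Their RPKM values were between 0.179 in ARABIDILLO-1 and 1.05 in PDF2, against 0.0758 in AT5G41110 and 0.321 in NDB1.

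The longest hotspot was one of 161 bases in URH2, a uridine nucleosidase gene (chr1:1678961-1679121, score -3.02), which began 80 bases from the mRNA 5′ end and held 3 AUGs. DIN10, a dark-inducible raffinose synthase family gene, had one of 129 bases, AT3G09100, an mRNA capping enzyme family gene, one of 126 bases, and Phox3 one of 124 bases, all at the lowest score of -3.59. Of the genes tied at that score, the first 5 by locus were TPST, which sulfates peptide hormones, AT1G08270, the oligouridylate-binding RBP45B, HLL, a mitochondrial ribosomal protein needed for ovule growth, and XXT4. In RBP45B (2.61 RPKM, 1.86 to 3.56) the hotspot filled 64 of the 121 bases of the 5′ UTR. In XXT4 (0.0651 RPKM, 0.00415 to 0.289) it lay 665 bases from the start codon, in the third exon of a 5′ UTR of 1070 bases.

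Genes with a 5′ UTR hotspot had middling to fairly high levels of ribosome-bound RNA. Their median was 0.358 RPKM (0.337 to 0.383), against 0.264 RPKM (0.258 to 0.270) for all genes that could hold one. Above the median gene stood 551 of 873 hosts (63.1%, 59.8 to 66.3), where 50% of all such genes do, and 13 hosts were listed at 0. The difference was smaller at long 5′ UTRs. Shares above the median gene for hosts and other genes were 66.7% and 38.1% at 50 to 100 bases (12 hosts) and 68.5% and 49.0% at 100 to 200 bases. They were 66.3% and 55.1% at 200 to 300 bases, 63.8% and 53.9% at 300 to 500 bases, and 56.0% and 53.6% above that. Among genes with no hotspot wholly in the 5′ UTR, those with one wholly in coding exons had a median of 0.311 RPKM. Those with one wholly in the 3′ UTR had 0.398 RPKM, and those with none that touched coding sequence or 3′ UTR had 0.151 RPKM. RPKM depends on the amount of mRNA as well as on ribosome loading, and these cannot be told apart without a total RNA library. In bulk tissue, a gene expressed in few cells cannot be told apart from one with little RNA in every cell.

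Low coverage limits these levels. The median host rested on 6.80 weighted clones, and 302 hosts (34.6%) had at least 10, against 25.2% of all genes. Among genes with at least 10 weighted clones, only 32.5% (27.2 to 38.0) of hosts stood above the median of that set, so the direction turned over there. RPKM is computed from these clones, so the filter itself favours genes of high RPKM and is not an independent check of coverage. Among genes with a mean weight per clone of at least 0.5, the share was 51.2% (47.3 to 55.1).

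The share of genes with a 5′ UTR hotspot peaked in the middle of the RPKM range. It was 0.903% (0.482 to 1.54) of the 1439 genes listed at 0, 1.37% in the lowest decile above 0, 6.85% (5.75 to 8.08) in decile 6, between 0.299 and 0.403 RPKM, and 3.21% (2.47 to 4.11) in the top decile, above 1.64 RPKM. The median 5′ UTR length also peaked there, at 214 bases in decile 7, against 135 bases for genes at 0 and 181 bases in the top decile. Per Mb of 5′ UTR, the hotspots numbered 296 in decile 6, against 52.8 for genes at 0 and 150 in the top decile. The share of genes with a hotspot wholly in coding exons had the same shape, 13.7% at 0, 58.7% in decile 6 and 40.1% in the top decile.

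**Figure D4:**
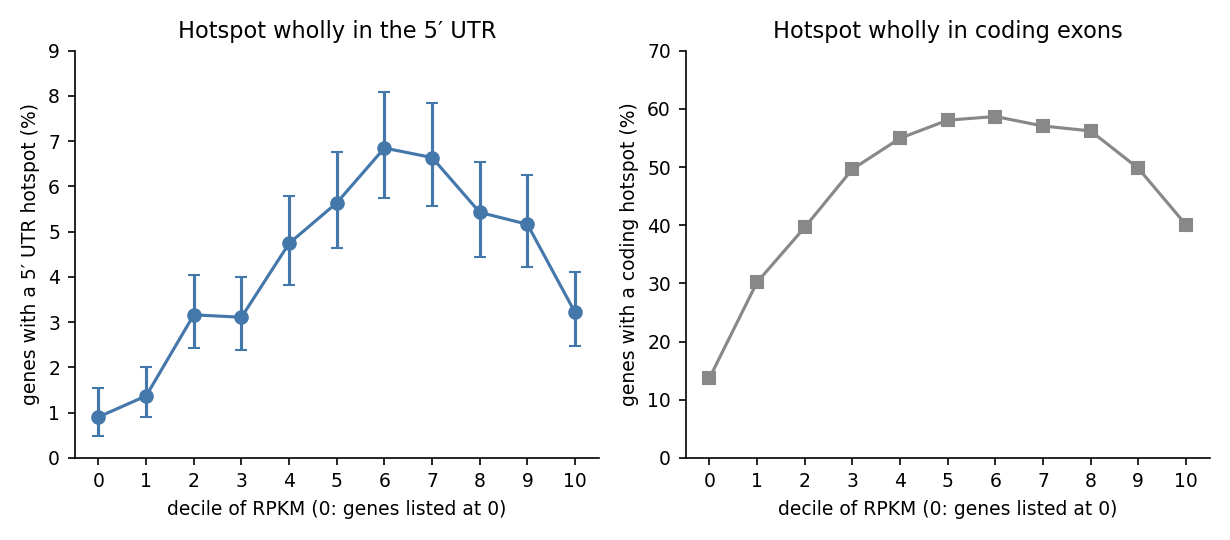
Percent of genes with a hotspot wholly in the 5′ UTR (left, with exact binomial 95% intervals) and wholly in coding exons (right) for genes listed at 0 RPKM and for each decile of RPKM above 0. Both curves peak at decile 6, at 6.85% and 58.7%, and are lower in the top decile, at 3.21% and 40.1%.

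Host genes often had hotspots elsewhere on the mRNA. A further hotspot with at least 1 base in the coding sequence or 3′ UTR was present on 643 of 873 hosts (73.7%, 70.6 to 76.5). Of all genes that could hold a 5′ UTR hotspot, 59.3% had one. Hotspots that touched coding sequence were on 68.6% of hosts and 55.5% of all such genes, and those that touched the 3′ UTR on 22.6% and 15.3%. These counts include hotspots that run over an edge, unlike the counts of hotspots wholly in coding exons. The 230 hosts with no other hotspot had a median of 0.342 RPKM (0.287 to 0.407), against 0.362 RPKM (0.340 to 0.391) for the 643, and these intervals overlap.

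The hosts with most ribosome-bound RNA were a mixed group. AT1G78040 had 17.3 RPKM (14.7 to 20.2), the polyubiquitin gene UBQ14 16.3 (14.3 to 18.5), the small GTPase gene RABB1C, of transport between the ER and the Golgi, 15.6 (13.2 to 18.4), EXL4, an extracellular lipase of the pollen coat (AT1G75910), 15.1 (13.0 to 17.4) and the actin gene ACT7 14.3 (12.5 to 16.3). AT1G71900, a putative magnesium transporter, had 13.98 RPKM (12.2 to 15.9). The intervals of these 6 neighbours overlap. Next came the calmodulin gene CAM3 with 9.35 RPKM, F3H of flavonoid synthesis with 7.33, the alpha-tubulin gene TUA2 with 6.61 and AT2G07727, a cytochrome b copy on chromosome 2, with 5.47.

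Clones of several of these genes were weighted down by the authors, for a reason that no source used here states. The mean weight per clone was 0.209 in RABB1C, 0.339 in AT1G71900, 0.437 in UBQ14, 0.398 in AT2G07727 and 0.484 in TUA2. UBQ14, CAM3 and TUA2 belong to families of closely similar genes and AT2G07727 has a near-identical copy in the mitochondrial genome, so their levels are uncertain. Whether the AT2G07727 hotspot came from RNA of that copy was not tested. The hotspots of AT1G78040, UBQ14 and F3H lay opposite an annotated exon on the other strand, and whether clones were counted by strand is not stated. In UBQ14 the hotspot of 53 bases touched the start codon, in RABB1C and TUA2 it ended 2 bases before it, and in CAM3 10 bases before it. The TUA2 hotspot covered 100 of the 151 bases of its 5′ UTR. In EXL4 a hotspot of 53 bases filled most of a 5′ UTR of 77 bases and held 24.5% GC. The ACT7 hotspot had 49.0% GC, against 32.1% in the rest of its 5′ UTR.

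**Figure D5:**
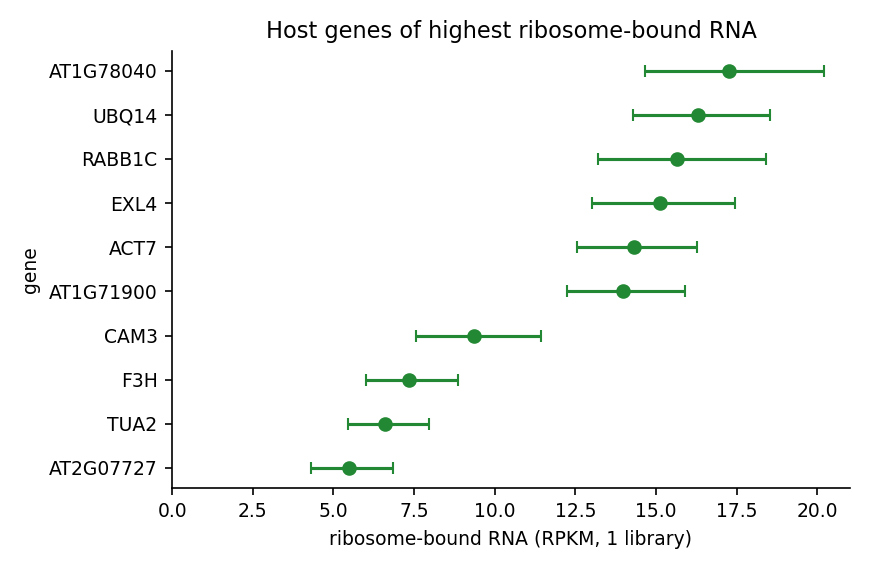
Ribosome-bound RNA (RPKM, horizontal axis, 1 library) of the 10 genes with a 5′ UTR hotspot and the highest level. Points are deposited values and bars are 95% Poisson intervals of the weighted clones; the first 6 genes lie between 13.98 and 17.3 RPKM with overlapping bars, and AT2G07727 lies at 5.47.

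The shares of hosts in gene groups are set beside the background of 4.28% and beside 5′ UTR length. Only the interval of ribosomal protein genes left out 4.28%, and it lay below. The shares of the other groups are not told apart from the background. Transcription factors, by words of the annotated product, had 41 hosts of 769 genes (5.33%, 3.85 to 7.16) and a median 5′ UTR of 239 bases. The highest RPKM was that of AT1G12440, an A20/AN1 zinc finger gene (4.33 RPKM). The words zinc finger family caught it, and they do not show that it is a transcription factor. BBX28, a B-box gene (1.79 RPKM), and SHP1, a MADS-box gene of fruit opening (1.23 RPKM, 0.678 to 2.06), followed, while AT1G80745 was listed at 0. SHP1 was also the only host among 37 floral organ and meristem regulators (2.70%, 0.0684 to 14.2), whose hotspot of 58 bases lay 81 bases before the start codon. Kinases had 39 hosts of 734 genes (5.31%, 3.81 to 7.19), with AT3G56370, a leucine-rich repeat kinase, at 3.02 RPKM and ATMPK8, a MAP kinase, at 2.39 RPKM. The words of that list also caught AT1G56190, a phosphoglycerate kinase of sugar metabolism (2.45 RPKM). The median 5′ UTR was 262.5 bases for the kinase list and 268 bases for the floral list.

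Ribosomal protein genes had 5 hosts of 291 (1.72%, 0.560 to 3.96), with a median RPKM of 0.250 for the hosts and 3.11 for the list, and a median 5′ UTR of 124 bases. One of these 5 is HLL, which serves mitochondria, and AT3G46210 only shares a domain with ribosomal protein S5, so fewer than 5 are cytosolic ribosomal proteins. AT5G15520, for protein S19 of the small subunit, had 0.884 RPKM (0.319 to 1.94). Translation factors, by product words, had 4 hosts of 109 (3.67%, 1.01 to 9.13), of which 3 are TFIIS family genes of transcription and 1, AT1G76720, is named for eIF-2. RNA-binding proteins had 5 hosts of 199 (2.51%, 0.821 to 5.77), with RBP45B at 2.61 RPKM and AT3G51950 at 1.51 RPKM. None of 49 light-harvesting and photosystem genes held a 5′ UTR hotspot, and their median was 8.26 RPKM. The exact interval for this share reaches 7.25%, and an allowance of 3 counts gives 6.12%. Median 5′ UTRs were 170 bases for translation factors, 187 for RNA-binding proteins and 172 for the light-harvesting and photosystem genes.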

How the data were processed

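Both libraries were made by the authors from immature flower buds, and cutadapt 0.9.5, Bowtie 0.12.7 and build TAIR9 are named per the submitters' processing notes; no source used here states the hotspot caller, the strand setting of the counting or the annotation. The deposited hotspots are intervals with a strand and a score, and an FDR of 5% is named in the deposited title of the list. Per the file headers, the authors deposited for each transcript a count of clones, an estimated count of weighted clones, an RPM value and an RPKM value per kb of listed length. No deposited column of sample values was left unused (0).

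Positions were read against the RefSeq genome and annotation TAIR10.1, whose nuclear sequence is known to be that of TAIR9, after the check of register. Of 27444 protein-coding genes, 26633 had an isoform in both sources; the isoform with the longest coding sequence was used, and 22543 had a 5′ UTR. Shares carry exact binomial (Clopper-Pearson), medians order-statistic and RPKM values Poisson 95% intervals. A share of 0 allows 3 counts. PCR copies are not independent molecules, so intervals cover counting error only. Windows were 50 bases. ViennaRNA 2.7.2 gave folding energies, on windows every 10 bases. Differences within a 5′ UTR needed a rest of at least 20 bases, which 922 hotspots had.

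Hotspots, gene lists and motifs were chosen with earlier results of these data known. Purine content, purine runs and their printed sites were chosen after values were seen, and 1 such site is not reported here. Named genes were the 10 hosts of highest RPKM, the 5 most negative scores (ties by locus), the 5 longest hotspots, the 5 hosts with most hotspots (ties by bases), the 5 hotspots with most AUGs (ties by score, then locus), and the 3 highest and 1 lowest host of each list. The placement rule and positions were tested on simulated data. Python 3.11.15, pandas 2.3.3, NumPy 2.4.6, SciPy 1.17.1 and matplotlib 3.10.9 were used.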

Additional observations from a re-analysis of the deposited data

How the results depend on the processing

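No paired analysis was possible because each assay had 1 library. Of 68 values under other settings, 42 moved by less than their interval or by less than 1.5 times for counts. The counts of hotspots and host genes were 1549 and 1388 with any isoform, 1441 and 1366 with at least 50% of bases inside, 102 and 96 with equal transcript length in both sources, 395 and 384 with scores more negative than the median, and 599 and 575 without 5′ UTR introns. The median distance to the start codon was 129, 44 and 71 bases with any isoform, with 50% inside and without introns. The share with an AUG was 51.1% with any isoform, 30.3% with 50% inside and 46.1% at equal length. The median host RPKM was 0.440 at a mean weight of at least 0.5 and 0.836 at 10 or more weighted clones. The share above the median gene was 69.8% at equal length, 66.8% without introns, 51.2% at a mean weight of at least 0.5 and 32.5% at 10 or more weighted clones, on the other side of 50%. The GC difference was 0.797 points (-1.21 to 2.85) and the share with another hotspot 63.5% (53.1 to 73.1), both at equal length. The purine difference, an alternative set chosen after seeing the data, was 8.36 points with 50% inside and 8.48 points with more negative scores. At 10 or more weighted clones the genes compared are fewer and better covered, and they are chosen by the counts from which RPKM is computed. Other causes were not tested.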
